A study of Caenorhabditis elegans with 33 samples.

Results

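The body-shape and strut collagens are 10 cuticle collagen genes of Caenorhabditis elegans: sqt-1, sqt-2, sqt-3, rol-6, bli-1, bli-2, dpy-5, dpy-13, dpy-17 and lon-3. They were taken by gene name from the 17907 genes in the deposited tables, and all 10 were present and passed the filter on low counts that left 17354 genes for testing. The samples were whole hermaphrodites at adult day 2, about 3000 animals each, raised at 16 °C through larval growth and moved to 20 °C at the L4 stage. All of them had received 5-fluorodeoxyuridine, which stops the production of progeny, and all fed on HT115(DE3) Escherichia coli. The 4 strains were the double mutant eat-2(ad465);mxl-2(tm1516), the single mutants eat-2(ad465) and mxl-2(tm1516), and N2, the wild type. Each strain was fed bacteria making double-stranded RNA against daf-16 or against pha-4, or bacteria with the empty vector L4440 (EV). This gave 12 groups and 33 libraries, with 2 libraries in every eat-2 group and 3 in every other group. The eat-2 mutation lowers feeding and is used as a genetic model of dietary restriction, mxl-2 encodes a Max-like partner of a Myc-family factor, and daf-16 and pha-4 encode FOXO and FOXA transcription factors.

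The cuticle of C. elegans is an exoskeleton made mainly of collagens, which the epidermis secretes anew at each moult and which sets the shape of the body. Different collagens are made in different waves around a moult and end up in different structures, such as the annular furrows or the struts that join the layers of the adult cuticle. Mutants were named after their shape: squat (sqt), roller (rol), blistered (bli), dumpy (dpy) and long (lon). sqt-1, sqt-2 and rol-6 encode squat and roller collagens, and an altered rol-6 gene is widely used as a visible marker of transgenic animals. bli-1 and bli-2 encode collagens of the adult struts, without which the cuticle blisters. Loss of dpy-5, dpy-13 or dpy-17 makes animals short and thick, loss of lon-3 makes them long, and the product of sqt-3 is trimmed by the protease DPY-31.

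In the Ensembl annotation of WBcel235, 5 of the 10 genes lay on chromosome II, and the others on chromosomes I, III, IV and V. sqt-1 (WBGene00005016) spanned II:11336693-11337837, sqt-2 (WBGene00005017) II:23325-24458, rol-6 (WBGene00004397) II:8733050-8734239, bli-1 (WBGene00000251) II:10708960-10712156 and bli-2 (WBGene00000252) II:5651394-5652434. dpy-5 (WBGene00001067) spanned I:5432197-5433051, dpy-13 (WBGene00001074) IV:4235614-4236710, dpy-17 (WBGene00001076) III:5107330-5108492, sqt-3 (WBGene00005018) V:12352745-12354320 and lon-3 (WBGene00003057) V:12197437-12198645. Exons of another gene covered 10.1% of the exon length of sqt-3 and 0.233% of that of bli-1, and none of that of the other 8. Whether reads were counted by strand is not given in the sources used here, so those 2 genes may hold reads of a neighbour.

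Library totals were 20.2 to 31.5 M counts (median 27.96 M), and the 10 collagens made up 0.00455% to 0.260% of them. The labels call each library a replicate and do not say that replicates came from separate cultures, so the p-values measure the spread between these libraries, which may be partly technical. The targeted genes did not follow every label. Libraries labelled pha-4 RNAi in the double mutant had pha-4 at 7.74, 12.8 and 10.8 CPM (counts relative to the library total, scaled by the trimmed mean of M values, TMM), against 3.99, 3.27 and 4.22 CPM in those labelled EV, so pha-4 was higher under its own RNAi. In the eat-2 libraries labelled pha-4 RNAi, pha-4 stood at 5.10 and 13.6 CPM, against 14.05 and 10.5 CPM in EV, and daf-16 stood at 32.4 and 69.6 CPM under daf-16 RNAi against 115.5 and 44.9 CPM in EV. In N2, pha-4 was at 4.53 to 5.86 CPM under pha-4 RNAi and at 9.29 to 17.8 CPM on EV. The mxl-2 transcript stood at 2.79 to 8.32 CPM in all libraries of both mxl-2 mutant strains and at 25.7 to 82.3 CPM in those of eat-2 and N2. Directions drawn from the 6 libraries labelled double mutant EV and pha-4 RNAi, and from the 6 eat-2 libraries, therefore hold for libraries with those labels. Column names number the double mutant libraries 49 to 57, and those of N2, mxl-2 and eat-2 between 1 and 27. If these numbers mark separate preparations, the strain and the preparation cannot be told apart.

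Replicates 1 and 3 of mxl-2 on daf-16 RNAi stood apart from all other libraries in the collagens. In them, 8 of the 10 genes (all but sqt-3 and dpy-17) were at their highest levels of the series, and dpy-17 was at its lowest, while sqt-3 was at its highest in replicate 3. dpy-5 had 14201 and 16849 counts in those libraries and 11 in replicate 2 of the same group. bli-1 had 3554 and 4781 counts there and 7 in replicate 2, and sqt-1 had 5655 and 6669 counts there and 7 in replicate 2. dpy-17 had 72 and 93 counts there and 1897 in replicate 2. Where the levels, spreads, correlations and calls below rest on these libraries, values without them, chosen after seeing the data, are also given. Correlations of deviations from the group means are the exception and are given with all libraries only.

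The 10 genes fell into 2 levels of abundance. On the TPM scale of the authors, which divides by gene length and by the library's sum, sqt-3 had a median of 78.1 TPM over the 33 libraries (12.2 to 346) and dpy-17 a median of 69.7 TPM (2.39 to 336). The other 8 had medians from 0.56 TPM for bli-1 to 9.40 TPM for dpy-5. The medians of sqt-1, sqt-2, rol-6, bli-2 and lon-3 lay between 2.25 and 2.81 TPM, and that of dpy-13 was 7.73 TPM. The less abundant 8 were also the more variable. Their highest CPM was 1041 times the lowest for sqt-2 and 6197 times for bli-1, against 157 times for dpy-17 and 33.1 times for sqt-3. With replicates 1 and 3 of mxl-2 on daf-16 RNAi left out, these ratios were 152 for sqt-2, 654 for bli-1, 17.2 for dpy-17 and 29.1 for sqt-3. That of bli-2, the widest of the 8, was then 2313. The ratios of bli-1 and bli-2 rest on a lowest value of 1 count. Over all libraries the lowest counts of the 8 ran from 1 (also in rol-6 and lon-3) to 7 in dpy-13, against 72 in dpy-17 and 310 in sqt-3. How much of the wider range of the 8 is counting error was not tested. The standard deviation of log2 CPM over all libraries ran from 2.39 to 2.99 in the 8, was 1.70 in dpy-17 and 1.46 in sqt-3, and had a median of 0.68 over all genes tested. Without the 2 libraries it ran from 1.89 to 2.56 in the 8, was 1.25 in dpy-17 and 1.38 in sqt-3, and had a median of 0.67 over all genes tested. Each of the 8 was more variable than 98.6% to 99.9% of the genes tested, and than 96.4% to 99.4% without the 2 libraries. Between 27.9% (dpy-17) and 43.5% (rol-6) of the variance of log2 CPM lay between replicates of the same group, and between 17.5% (sqt-1) and 33.9% (sqt-3) without the 2 libraries.

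**Figure D1:**
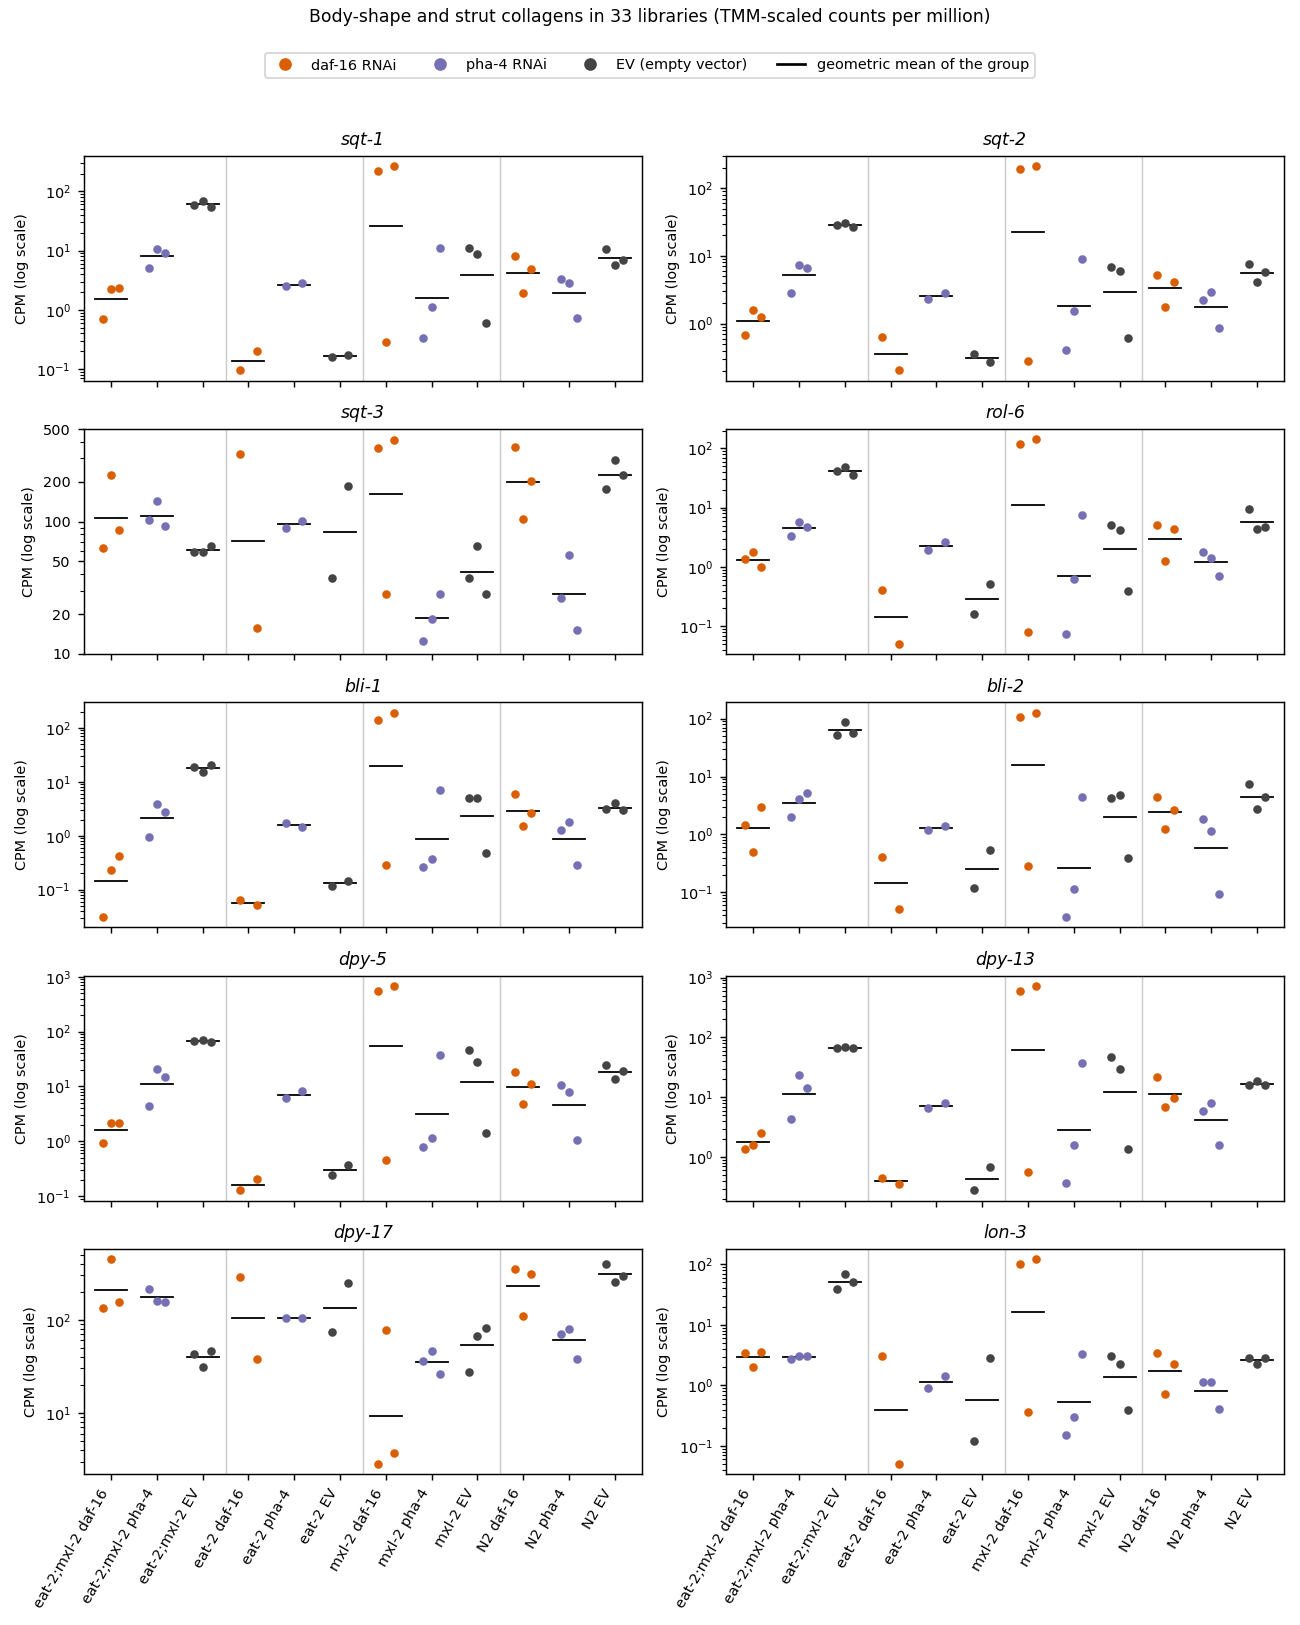
TMM-scaled CPM of each collagen (y, log scale) in the 12 groups (x), with a point per library and a line at the geometric mean of the group. In 8 of the panels the 3 libraries labelled double mutant EV lie above all libraries of the other EV groups, and mxl-2 on daf-16 RNAi has 2 libraries at the top and 1 near the bottom, while dpy-17 has the same 2 libraries at the bottom.

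The 8 less abundant genes shared their highest groups: the group labelled double mutant EV and mxl-2 on daf-16 RNAi held the first 2 places in each, and eat-2 on daf-16 RNAi came last in 7 of them and eat-2 EV in sqt-2. When mxl-2 daf-16 RNAi replicates 1 and 3 were left out, the group labelled double mutant EV was first in all 8, and the 1 mxl-2 library left on daf-16 RNAi took places 9 to 12. By mean log2 CPM, the group labelled double mutant EV came first for dpy-5 (6.07) and mxl-2 on daf-16 RNAi next (5.86), followed by N2 EV (4.22), with eat-2 EV (-1.44) and eat-2 on daf-16 RNAi (-2.10, from 4 counts in each library) at the other end. Along this order only 2 of the 11 pairs of neighbours did not overlap in dpy-5: double mutant on daf-16 RNAi above eat-2 EV, and eat-2 EV above eat-2 on daf-16 RNAi. For sqt-1, sqt-2 and dpy-13 there was 1 such pair of neighbours, again between double mutant on daf-16 RNAi and an eat-2 group. bli-1 had 2, and for rol-6, bli-2 and lon-3 there was none. The order of dpy-17 differed: N2 EV was highest (8.28), then N2 on daf-16 RNAi (7.85) and the double mutant on daf-16 RNAi (7.71), while the group labelled double mutant EV (5.31), mxl-2 on pha-4 RNAi (5.13) and mxl-2 on daf-16 RNAi (3.24) were lowest. Without replicates 1 and 3, the 1 library left of mxl-2 on daf-16 RNAi stood at 6.26 in dpy-17, in place 8. mxl-2 on pha-4 RNAi was then last. In sqt-3 N2 EV was highest (7.82) and mxl-2 on pha-4 RNAi lowest (4.23), and all 11 pairs of neighbours overlapped.

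The make-up of the 10-gene set also differed between libraries. In the libraries labelled double mutant EV, sqt-3 and dpy-17 made up 15.2% to 21.3% of the summed TPM of the 10 genes, against 98.6% in both eat-2 EV libraries and 86.0% to 89.8% in N2 EV libraries. The sum itself was 521 to 617 TPM in the double mutant EV libraries and 514 to 555 TPM in N2 EV, and the totals thus held different collagens. In mxl-2 on EV the share of sqt-3 and dpy-17 was 30.2%, 56.4% and 94.8% in replicates 1, 2 and 3. In replicates 1 and 3 of mxl-2 on daf-16 RNAi it was 13.35% and 13.01%, in a sum of 2154 and 2685 TPM, and in replicate 2 it was 97.6% in a sum of 96.6 TPM. The ratio of dpy-17 to sqt-3 TPM was 0.00838 and 0.00927 in those 2 libraries and between 0.528 and 2.97 in the other 31.

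**Figure D2:**
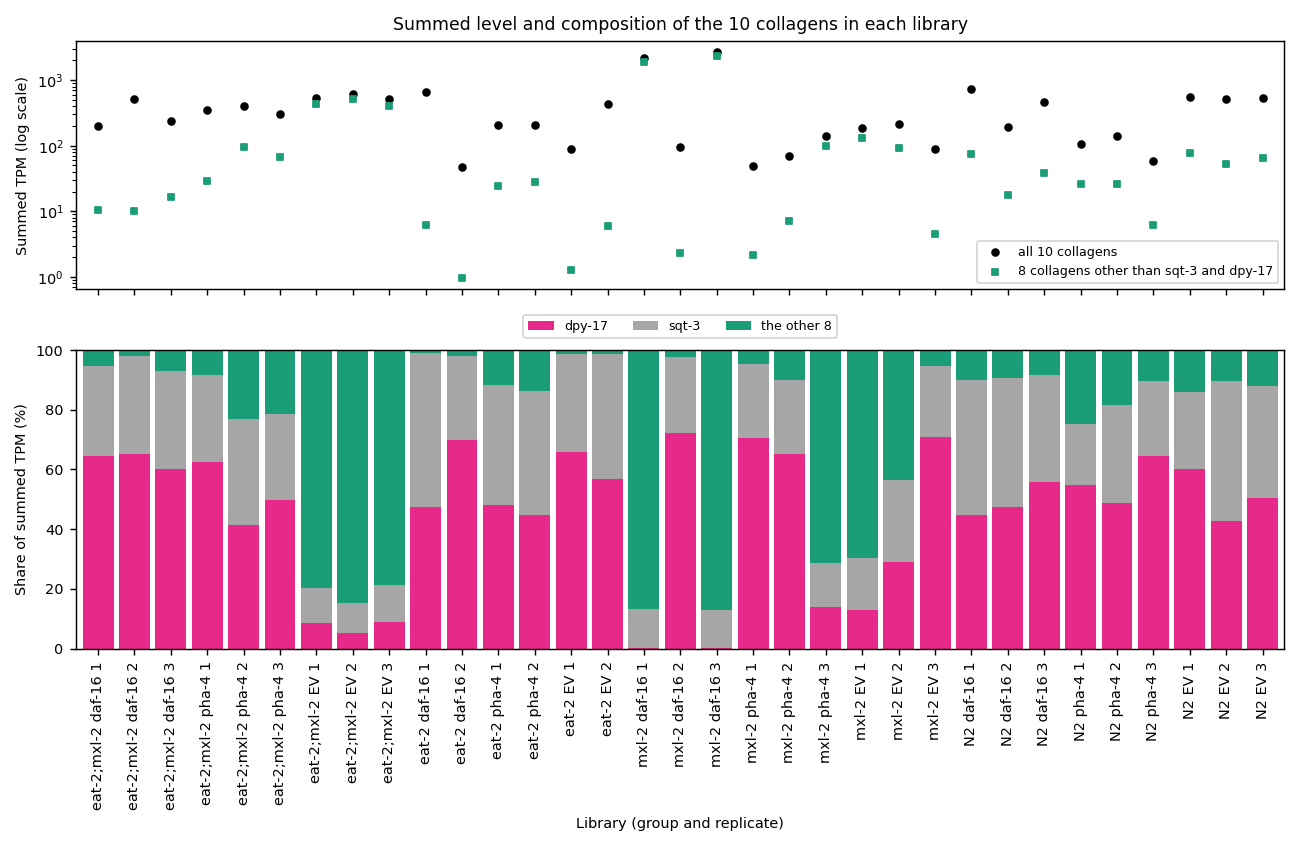
Summed TPM of the 10 collagens and of the 8 other than sqt-3 and dpy-17 (top, log scale), and the share of dpy-17, sqt-3 and the other 8 in that sum (bottom, %), in each of the 33 libraries (x, group and replicate). The share of sqt-3 and dpy-17 lies at 15.2% to 21.3% in double mutant EV and at 98.6% in eat-2 EV.

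The 8 less abundant genes varied together across libraries. Over the 33 libraries, Pearson's r of log2 CPM between pairs of the 8 ran from 0.79 to 0.99 (28 pairs, Spearman's rho 0.62 to 0.98). It ran from 0.83 to 0.99 when each gene was taken as its deviation from the group mean. These deviations include the wide gap within mxl-2 on daf-16 RNAi, where the SD of log2 CPM was 5.44 in sqt-1. No deviation values without those libraries are given, so how far replicates of the other groups shared the variation was not tested. For log2 CPM itself, the 28 values ran from 0.70 to 0.99 without replicates 1 and 3 of mxl-2 on daf-16 RNAi. The pair with the highest r was dpy-5 and dpy-13, and the lowest values involved lon-3. dpy-17 ran against the 8 (r -0.52 to -0.36), but without those 2 libraries its r with them was -0.15 to 0.07. sqt-3 had an r of 0.40 to 0.56 with the 8 over the libraries and 0.22 to 0.43 without those 2. As deviations from the group means, with all 33 libraries, the r of sqt-3 with the 8 was 0.62 to 0.85. For log2 CPM itself, the r of sqt-3 with dpy-17 was 0.27, and 0.86 without the 2 libraries. As deviations from the group means, with all 33 libraries, the r of sqt-3 with dpy-17 was 0.03. These are descriptions over libraries that share strains, foods and preparations.

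**Figure D3:**
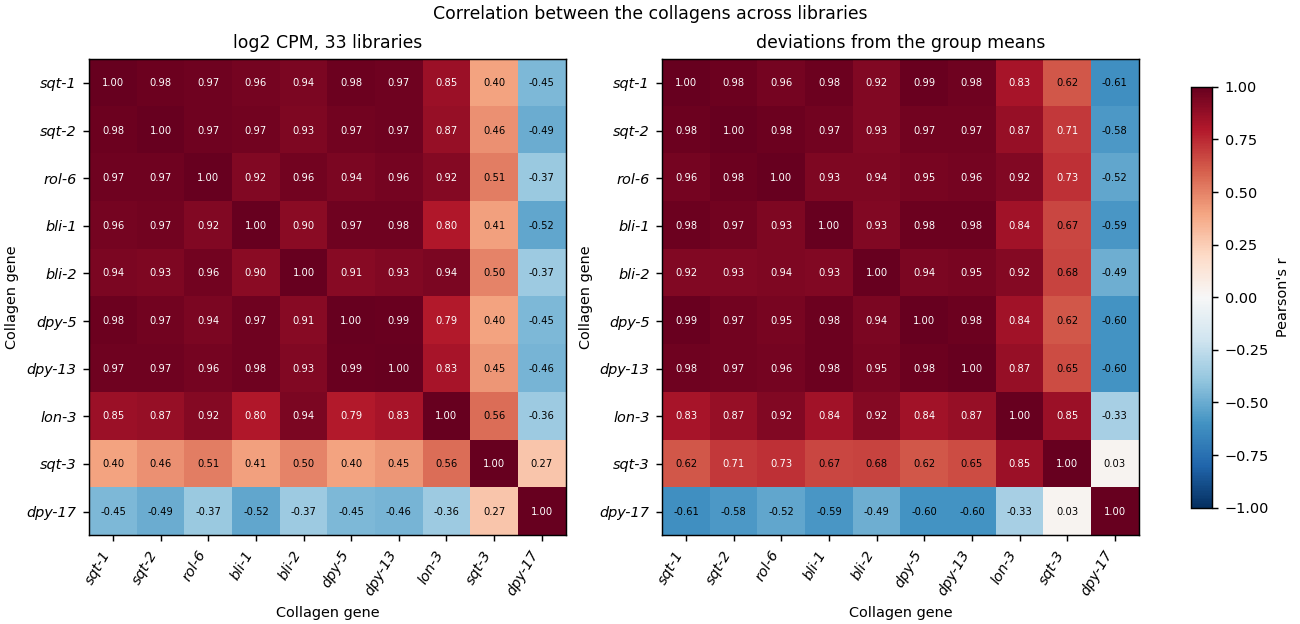
Pearson's r between the 10 collagens for log2 CPM over 33 libraries (left) and for deviations of log2 CPM from the group means (right). Both axes list the genes, and the colour and the printed value give r. The 8 less abundant genes lie at 0.79 and above on the left and at 0.83 and above on the right, dpy-17 is negative with all 8 in both, and sqt-3 lies at 0.40 to 0.56 with them on the left and at 0.62 to 0.85 on the right.

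The gene with the most similar pattern was looked up by Pearson's r of log2 CPM over the 33 libraries. Candidates were the named genes outside the set among the 13474 genes averaging at least 1 CPM. For sqt-1 and sqt-2 it was rol-8, another roller collagen (r 0.98 for both). For dpy-13, dpy-5 and bli-1 it was the collagen col-73 (r 0.99, 0.99 and 0.97), for rol-6 col-63 (r 0.98), for bli-2 col-79 (r 0.98) and for lon-3 col-14 (r 0.95). sqt-3 was closest to the furrow collagen dpy-3 (r 0.96), and dpy-17 was closest to dpy-14 (r 0.98), another dumpy gene. Leaving out replicates 1 and 3 of mxl-2 on daf-16 RNAi left these values at 0.93 to 0.99.

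The double mutant was compared with eat-2 on EV, the comparison that asks what removing mxl-2 does in the eat-2 background. All 8 less abundant genes were higher in the libraries labelled double mutant EV than in eat-2 EV, and sqt-3 and dpy-17 were not called. Here 8 of 10 collagens were called higher by edgeR's quasi-likelihood test at a Benjamini-Hochberg adjusted p under 0.05, where 9.54% of all genes tested were called higher and 18.4% were called in either direction. The CPM of the 8 did not overlap between the groups, as in 24.6% of all genes tested. The median log2 fold change of the 10 was 6.96, against -0.08 over all genes tested. The roller gene sqt-1 had 59.2, 69.3 and 53.7 CPM in the double mutant and 0.159 and 0.171 CPM in eat-2 (log2 fold change 8.48, SE 1.96; edgeR adjusted p = 0.00695). These groups were far apart, but the eat-2 values rest on 4 and 7 counts. sqt-2 had 28.7, 30.95 and 26.5 CPM in the double mutant and 0.358 and 0.269 CPM in eat-2 (6.52, SE 1.65, adjusted p = 0.0117). rol-6 had 41.1, 49.4 and 35.7 CPM in the double mutant and 0.159 and 0.514 CPM in eat-2 (6.89, SE 1.84, adjusted p = 0.0147). In whole-animal RNA, fewer cells of a type and less RNA per cell cannot be told apart, for these and the other collagens. Major sperm protein transcripts summed to 4680, 5673 and 4087 TPM in the same double mutant libraries, against 13.3 and 166 TPM in eat-2, and 15 of the 31 genes were called higher.

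The strut collagens moved with the rollers in that comparison. bli-1 had 18.97, 15.3 and 20.3 CPM in the double mutant and 0.119 and 0.147 CPM in eat-2, from 3 and 6 counts (log2 fold change 7.03, SE 1.86, edgeR adjusted p = 0.0144). bli-2 had 51.8, 86.7 and 57.4 CPM in the double mutant and 0.119 and 0.538 CPM in eat-2 (7.55, SE 1.99, adjusted p = 0.0141). Both strut genes rested on 3 to 22 counts per library in eat-2. Of the dumpy genes, dpy-5 had 67.1, 69.3 and 64.5 CPM in the double mutant and 0.239 and 0.367 CPM in eat-2 (7.73, SE 2.14, edgeR adjusted p = 0.0176). dpy-13 had 65.4, 70.4 and 66.7 CPM in the double mutant and 0.279 and 0.685 CPM in eat-2 (7.06, SE 2.03, adjusted p = 0.0206). The 3 double mutant libraries lay close together in both dumpy genes. lon-3 had 38.7, 69.7 and 50.3 CPM in the double mutant and 0.119 and 2.86 CPM in eat-2, with the eat-2 replicates far apart (5.12, SE 1.63, adjusted p = 0.0323). sqt-3 stood at 58.7 to 65.5 CPM in the double mutant, inside the 37.4 and 186 CPM of eat-2, and dpy-17 at 31.1 to 46.5 CPM in the double mutant, below the 73.6 and 248 CPM of eat-2 (log2 fold change -2.001, SE 0.91, edgeR adjusted p = 0.128). With 2 eat-2 libraries, leaving out eat-2 EV replicate 2 left 0 calls and leaving out replicate 1 left 2, with edgeR.

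Against N2 on EV, the same libraries of the double mutant were higher in all 8 genes without overlap and lower in sqt-3 and dpy-17 without overlap, but only 2 of the 10 were called. Of all genes tested, 12.1% were called, 30.2% were higher without overlap and 29.6% lower without overlap. lon-3 was called higher, with 38.7, 69.7 and 50.3 CPM in the double mutant against 2.82, 2.24 and 2.79 CPM in N2 (log2 fold change 4.33, SE 1.31, edgeR adjusted p = 0.0304). dpy-17 was called lower, with 43.1, 31.1 and 46.5 CPM in the double mutant against 398, 255 and 296 CPM in N2 (-2.97, SE 0.88, adjusted p = 0.0282). The differences of the other 8 ran from -1.91 (SE 0.83) in sqt-3 to 3.74 (SE 1.35, edgeR adjusted p = 0.0725) in bli-2. The 3 muscle markers were called lower, at a sum of 203 to 206 TPM in the double mutant and 305 to 518 TPM in N2. Fitting these 2 groups alone called all 10 with edgeR, a fit whose share of all genes is not given. Leaving out 1 library left 0 or 1 call.

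Against mxl-2 on EV, lon-3 was the 1 collagen called, where 7.86% of all genes tested were. It had 38.7, 69.7 and 50.3 CPM in the double mutant and 3.06, 2.23 and 0.392 CPM in mxl-2 (log2 fold change 4.798, SE 1.34, edgeR adjusted p = 0.0270). All 8 less abundant genes were again higher without overlap, as were 25.3% of all genes tested. The mxl-2 EV replicates differed widely: dpy-5 stood at 46.0, 28.4 and 1.39 CPM in them.

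Neither single mutant differed from N2 in a called collagen on EV. In eat-2 against N2 0 of 10 were called by edgeR, where it called 0.789% of all genes tested, and 7 were at an unadjusted p under 0.05. DESeq2 called 7 of 10, and 1947 of the 17354 genes tested. sqt-1 had the smallest p, with 0.159 and 0.171 CPM in eat-2 and 10.6, 5.76 and 6.90 CPM in N2 (log2 fold change -5.51, SE 1.76, edgeR adjusted p = 0.110). All but lon-3 and sqt-3 were lower in eat-2 without overlap, 8 of 10, as were 20.4% of all genes tested. The 3 muscle markers summed to 93.03 and 83.4 TPM in eat-2 and to 305, 518 and 479 TPM in N2, and all 3 were called lower. The sperm list summed to 13.3 and 166 TPM in eat-2 and to 3292 to 3639 TPM in N2, with 0 of 31 called and 31 at an unadjusted p under 0.05. Their part in these results was not tested. In mxl-2 against N2 0 of 10 were called by edgeR and 0 by DESeq2, 2 at an unadjusted p under 0.05, where edgeR called 0.0288% of all genes tested. sqt-3 had 37.8, 65.7 and 28.3 CPM in mxl-2 and 176, 292 and 225 CPM in N2 (-2.39, SE 0.84, edgeR adjusted p = 0.262), and dpy-17 did not pass either (-2.43, SE 0.86, adjusted p = 0.265). In these 2 collagens the groups did not overlap, as was so for 22.5% of all genes tested in the same direction.

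The test of whether the eat-2 difference depends on mxl-2, the interaction on EV, called 1 collagen, where 1.27% of all genes tested were called. In sqt-1 the log2 fold change was 3.14 for the double mutant over mxl-2 and -5.51 for eat-2 over N2. The term, their difference, was 8.64 (SE 2.16, edgeR adjusted p = 0.0450). The other 7 less abundant genes had interaction terms of 5.58 to 8.15 and did not pass (edgeR adjusted p 0.0626 to 0.144). The term was 1.52 (SE 1.22) in sqt-3 and 0.42 (SE 1.24) in dpy-17. Leaving out any 1 of the EV libraries ended the sqt-1 call. Without replicates 1 and 3 of mxl-2 on daf-16 RNAi more of the 10 were called, a fit whose share of all genes is not given.

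daf-16 RNAi was set against EV in each strain. In the double mutant, 8 of 10 collagens fell under daf-16 RNAi, where 2.81% of all genes tested were called lower and 9.55% in either direction. The 8 were the less abundant genes, and their log2 fold changes ran from -6.30 in bli-1 to -4.14 in lon-3. bli-1 had 0.0310, 0.227 and 0.420 CPM under daf-16 RNAi, from 1, 6 and 14 counts, and 18.97, 15.3 and 20.3 CPM in the libraries labelled EV (-6.30, SE 1.48, edgeR adjusted p = 0.0122). sqt-1 had 0.713, 2.23 and 2.34 CPM under daf-16 RNAi and 59.2, 69.3 and 53.7 CPM on EV (-5.11, SE 1.34, adjusted p = 0.0207). dpy-5 had 0.930, 2.12 and 2.19 CPM under daf-16 RNAi and 67.1, 69.3 and 64.5 CPM on EV (-5.26, SE 1.54, adjusted p = 0.0340). The groups did not overlap in any of the 8, as in 22.4% of all genes tested in that direction. Under daf-16 RNAi sqt-2 stood at 0.682 to 1.59 CPM, rol-6 at 0.990 to 1.78 CPM, bli-2 at 0.492 to 3.03 CPM, dpy-13 at 1.36 to 2.49 CPM and lon-3 at 2.04 to 3.54 CPM. Their log2 fold changes were -4.62 in sqt-2, -4.93 in rol-6, -5.29 in bli-2, -5.20 in dpy-13 and -4.14 in lon-3 (edgeR adjusted p 0.0218, 0.0275, 0.0269, 0.0337 and 0.0444). Major sperm protein transcripts summed to 407, 573 and 536 TPM under daf-16 RNAi and to 4087 to 5673 TPM on EV, with 0 of 31 called by edgeR and 15 at an unadjusted p under 0.05.

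dpy-17 went the other way in the double mutant without passing the test, at 133, 445 and 154 CPM under daf-16 RNAi and 43.1, 31.1 and 46.5 CPM on EV (log2 fold change 2.60, SE 0.87, edgeR adjusted p = 0.0558). sqt-3 overlapped, at 63.0, 224 and 86.5 CPM under daf-16 RNAi and 58.7 to 65.5 CPM on EV (1.03, SE 0.81, adjusted p = 0.397). Leaving out 1 library lowered the 8 calls to between 0, without double mutant daf-16 replicate 1, and 4, without its replicate 2. The EV libraries in this comparison are those whose pha-4 level goes against the label, so the value compares daf-16 RNAi with libraries labelled EV.

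In mxl-2 the daf-16 RNAi comparison turned on which daf-16 RNAi libraries were kept. sqt-2 had the smallest p, at 188, 0.283 and 212 CPM under daf-16 RNAi and 6.74, 5.93 and 0.610 CPM on EV (log2 fold change 4.91, SE 1.23, edgeR adjusted p = 0.0814). In each of the 8 less abundant genes, daf-16 RNAi libraries lay on both sides of all 3 EV libraries. edgeR called 0 of 10, with 9 at an unadjusted p under 0.05, where it called 0.127% of all genes tested. DESeq2 called 9 of 10, and 466 of the 17354 genes tested. With edgeR and without daf-16 RNAi replicate 2 all 10 were called, a fit whose share of all genes is not given. Without replicates 1 and 3 the sqt-2 value was -3.93 and edgeR called 0 of 10. That fit leaves 1 daf-16 RNAi library, at 0.283 CPM, which is assumed to vary like the other groups.

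In N2 and in eat-2, 0 of 10 collagens were called for daf-16 RNAi by edgeR or by DESeq2 and 0 were at an unadjusted p under 0.05. edgeR called 0.248% of all genes tested in N2 and 0.0115% in eat-2. All 10 overlapped in N2: rol-6, for example, had 5.11, 1.24 and 4.32 CPM under daf-16 RNAi and 9.52, 4.39 and 4.76 CPM on EV. In eat-2 the 2 replicates of each group were far apart. sqt-3 had 325 and 15.8 CPM under daf-16 RNAi and 37.4 and 186 CPM on EV, and dpy-17 had 289 and 38.3 CPM under daf-16 RNAi and 73.6 and 248 CPM on EV. lon-3 had 3.10 and 0.0509 CPM under daf-16 RNAi and 0.119 and 2.86 CPM on EV. daf-16 RNAi replicate 1 was thus nearest to EV replicate 2 in these 3 genes, and daf-16 RNAi replicate 2 to EV replicate 1. The level of daf-16 itself does not separate the 2 groups either, so a label may be crossed between these 4 libraries. This was not tested, and every value of eat-2 on EV or on daf-16 RNAi holds for the libraries as labelled. bli-1 had 2 and 1 counts in the eat-2 daf-16 libraries, both under the floor of 3 counts per library. No bli-1 fold is therefore given for daf-16 RNAi in eat-2. The bli-1 averages over the 3 foods below include these libraries.

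**Figure D4:**
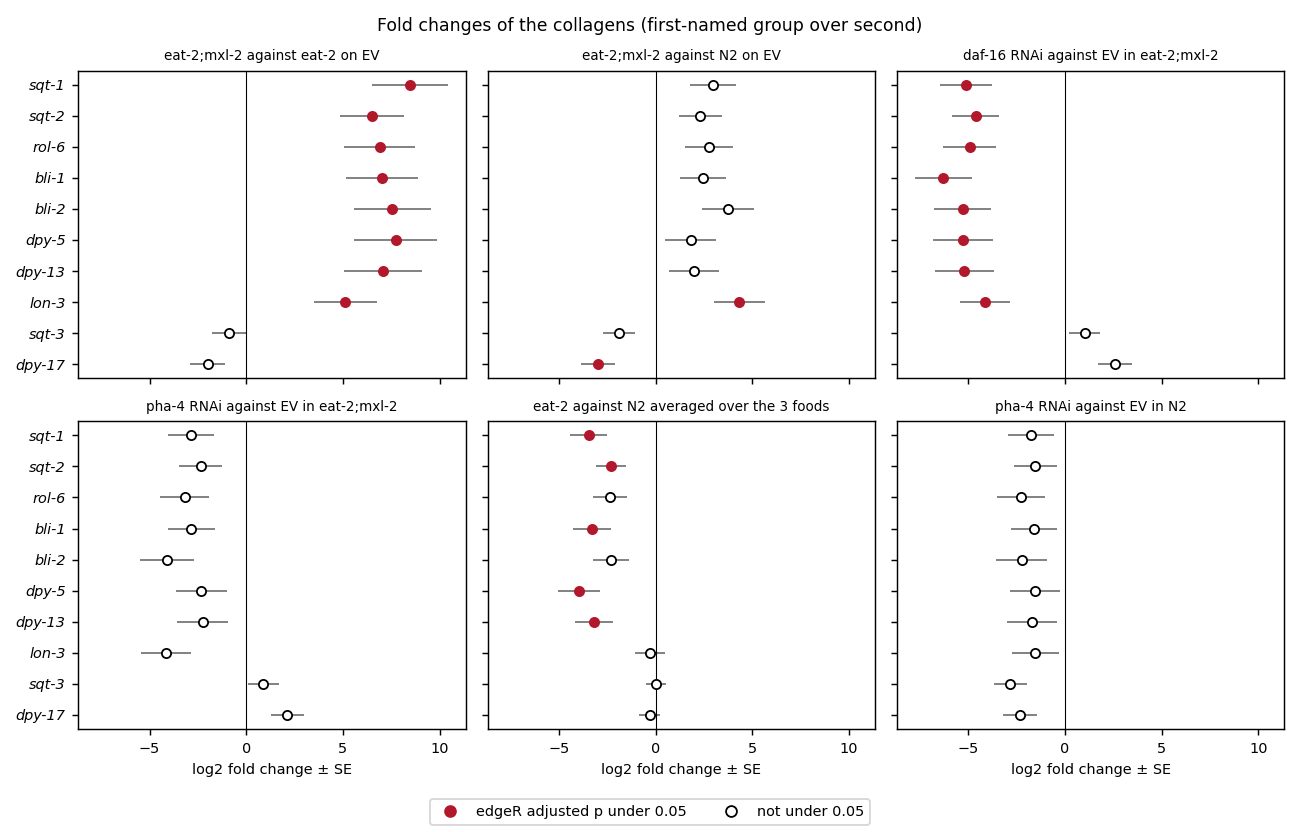
log2 fold changes of the 10 collagens (x, first-named group over the second, with bars of 1 SE) in 6 comparisons, with filled points at an edgeR adjusted p under 0.05. The 8 upper genes lie between 5.12 and 8.48 in the double mutant against eat-2 on EV and between -6.30 and -4.14 for daf-16 RNAi in the double mutant, and sqt-3 and dpy-17 are not called in either.

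pha-4 RNAi called no collagen in any strain with edgeR. In N2 all 10 were lower under pha-4 RNAi than on EV without overlap, as were 17.1% of all genes tested. There edgeR called 0 of 10 and 0.323% of all genes, with 2 of 10 at an unadjusted p under 0.05. DESeq2 called 1 of 10, and 356 of the 17354 genes tested. sqt-3 had 26.3, 55.8 and 15.2 CPM under pha-4 RNAi and 176, 292 and 225 CPM on EV (log2 fold change -2.83, SE 0.86, edgeR adjusted p = 0.174). dpy-17 had 70.8, 79.3 and 38.3 CPM under pha-4 RNAi and 398, 255 and 296 CPM on EV (-2.33, SE 0.86, adjusted p = 0.293). Replicate 3 of N2 on pha-4 RNAi was the lowest of its group in all 10 genes. In mxl-2, 0 of 10 were called, 0 at an unadjusted p under 0.05 and 0 by DESeq2, where edgeR called 0.887% of all genes. There dpy-5 stood at 0.787, 1.13 and 36.9 CPM under pha-4 RNAi and at 46.0, 28.4 and 1.39 CPM on EV. sqt-1 stood at 0.337, 1.13 and 10.996 CPM under pha-4 RNAi and at 11.2, 8.81 and 0.610 CPM on EV. In both genes replicate 3 was the high library under pha-4 RNAi and the low one on EV. The sperm list followed the same libraries, at 122, 83.9 and 4310 TPM under pha-4 RNAi and 10580, 7619 and 56.6 TPM on EV.

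In eat-2 the direction was the opposite of that in N2 for 7 genes, which were higher under pha-4 RNAi than on EV without overlap, as were 21.6% of all genes tested. dpy-5 had 6.12 and 8.18 CPM under pha-4 RNAi and 0.239 and 0.367 CPM on EV (log2 fold change 4.51, SE 1.96, edgeR adjusted p = 0.234). sqt-1 had 2.501 and 2.82 CPM under pha-4 RNAi and 0.159 and 0.171 CPM on EV (3.97, SE 1.75, adjusted p = 0.238). The sperm list summed to 1499 and 1499 TPM under pha-4 RNAi and 13.3 and 166 TPM on EV, with 0 of 31 called and 19 at an unadjusted p under 0.05. The muscle markers summed to 344 and 215 TPM under pha-4 RNAi and 93.03 and 83.4 TPM on EV, with 0 of 3 called and 3 at an unadjusted p under 0.05. For the collagens edgeR called 0 of 10 here and 1.17% of all genes, and 3 of 10 were at an unadjusted p under 0.05. DESeq2 called 1 of 10, and 1117 of the 17354 genes tested. In the double mutant 8 genes were lower and 2 higher without overlap under pha-4 RNAi, where 26.7% of all genes tested were lower and 28.9% higher in that way. lon-3 had 2.75, 3.03 and 3.08 CPM in libraries labelled pha-4 RNAi and 38.7, 69.7 and 50.3 CPM in those labelled EV (-4.16, SE 1.298, edgeR adjusted p = 0.108). edgeR called 0 of 10 and 1.49% of all genes, and 7 of 10 were at an unadjusted p under 0.05. DESeq2 called 2 of 10, and 727 of the 17354 genes tested. On these 2 groups alone edgeR called 10, and the share of all genes in that fit is not given.

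Averaged over the 3 foods, eat-2 was lower than N2 in 5 of 10 collagens, where 9.24% of all genes tested were called lower and 14.6% in either direction. The largest of the 5 was dpy-5, at -3.98 (log2, SE 1.08; edgeR adjusted p = 0.0196). Among the rollers, sqt-1 was at -3.46 (SE 0.94, adjusted p = 0.0195) and sqt-2 at -2.31 (SE 0.79, adjusted p = 0.0492). bli-1 was at -3.29 (SE 0.97, adjusted p = 0.0272) and dpy-13 at -3.18 (SE 0.99, adjusted p = 0.0336). The 6 eat-2 libraries had dpy-5 at 0.127 to 8.18 CPM and the 9 N2 libraries at 1.07 to 24.4 CPM, so the strains overlapped. All 3 muscle markers (median log2 fold change -1.42) and 30 of 31 sperm genes (median -4.36) were called lower as well. sqt-3 (0.04, SE 0.51) and dpy-17 (-0.30, SE 0.53) were not called. limma on log2(TPM + 1) called 0 of 10, and leaving out eat-2 EV replicate 2, eat-2 daf-16 replicate 1 or either eat-2 pha-4 replicate left 0 with edgeR.

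In mxl-2 against N2 over the 3 foods dpy-17 was called lower (log2 fold change -2.15, SE 0.49, edgeR adjusted p = 0.0131), where 6.75% of all genes tested were called. Its 9 mxl-2 libraries ran from 2.84 to 81.7 CPM and its 9 N2 libraries from 38.3 to 398 CPM. The number of collagens called rose without replicates 1 and 3 of mxl-2 on daf-16 RNAi, and it rose to 8 without replicate 2. The share of all genes called in these fits is not given. The double mutant was called higher than N2 in lon-3 and in none of the other 9 (2.18, SE 0.70, edgeR adjusted p = 0.0240), where 25.4% of all genes tested were called. lon-3 ran from 2.04 to 69.7 CPM in the 9 double mutant libraries and from 0.409 to 3.37 CPM in the 9 N2 libraries.

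The double mutant was higher than eat-2 over the 3 foods in the 8 less abundant genes, where 11.2% of all genes tested were called higher and 23% in either direction. The changes ran from 2.45 in lon-3 (SE 0.83, edgeR adjusted p = 0.0353) to 4.58 in sqt-1 (SE 0.97, adjusted p = 0.00199). On daf-16 RNAi alone, which leaves out the libraries whose pha-4 level goes against the label, 0 of 10 were called. Against mxl-2 the double mutant was lower in bli-1 (-2.18, SE 0.71, adjusted p = 0.0229), dpy-5 (-2.14, SE 0.77, adjusted p = 0.0385) and dpy-13 (-2.15, SE 0.76, adjusted p = 0.0360) and higher in dpy-17 (1.62, SE 0.49, adjusted p = 0.0145), where 29.8% of all genes tested were called. The 3 lower calls rest on replicates 1 and 3 of mxl-2 on daf-16 RNAi: without them these genes had differences of 0.56, 1.02 and 0.92. dpy-17 was then at 1.02 (edgeR adjusted p = 0.0808).

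All 10 collagens varied among the 12 groups beyond the spread between replicates, as did 46.3% of all genes tested. The edgeR adjusted p ran from 3.2e-05 in bli-1 to 0.0132 in sqt-3. The RNAi responses differed between strains in 8 of 10, the less abundant genes, where 6.77% of all genes tested were called (edgeR adjusted p from 0.00554 in bli-1 to 0.0274 in lon-3). sqt-3 (adjusted p = 0.0910) and dpy-17 (adjusted p = 0.141) were not called. Without replicates 1 and 3 of mxl-2 on daf-16 RNAi fewer of the 10 were called for this interaction. Without the 6 libraries labelled double mutant EV and pha-4 RNAi 0 were. The share of all genes called in these fits is not given.

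Other cuticle genes were counted in lists of known function, chosen with earlier results of these data known. In the double mutant against eat-2 on EV, 2 of 6 furrow collagens were called higher, dpy-8 (log2 fold change 5.67, edgeR adjusted p = 0.00949) and dpy-9 (4.20, adjusted p = 0.00381), and 0 lower, where 9.54% of all genes tested were called higher. Of 4 other collagens known by phenotype, dpy-4 (6.57, adjusted p = 0.0239) and rol-8 (5.84, adjusted p = 0.0183) were called higher, and bli-6 and dpy-14 were not called. The median of those 4 was 5.86, against -0.08 over all genes tested. For daf-16 RNAi against EV in the double mutant, dpy-8 (-5.09, adjusted p = 0.00755), dpy-9 (-3.13, adjusted p = 0.00999), dpy-4 (-4.99, adjusted p = 0.0369) and rol-8 (-3.92, adjusted p = 0.0433) fell, where 2.81% of all genes tested did.

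Of 15 enzymes that process and cross-link collagen, 1 was called in each of these comparisons, where 18.4% and 9.55% of all genes tested were. It was bli-3, a dual oxidase, higher in the double mutant than in eat-2 on EV (log2 fold change 0.85, edgeR adjusted p = 0.0325) and lower under daf-16 RNAi than on EV in the double mutant (-0.89, adjusted p = 0.0231). Of 14 moulting genes 0 were called in either comparison by edgeR, with 3 and 7 at an unadjusted p under 0.05. Against N2 on EV, where 12.1% of all genes tested were called, the double mutant had nas-36 higher (2.07, adjusted p = 0.0133) and noah-1 (-1.38, adjusted p = 0.00878) and noah-2 (-1.50, adjusted p = 0.0121) lower. Of 12 genes of the DBL-1 body-size pathway, lon-1 was higher (1.49, adjusted p = 0.00306) and sma-10 (-1.84, adjusted p = 0.00665) and sma-9 (-1.35, adjusted p = 0.00306) lower there.

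Sperm transcripts were related to the 8 collagens over the libraries, with exceptions. Of the 31 major sperm protein genes, 0 had no reads in the 3 double mutant EV libraries, and 8 and 0 had none in eat-2 EV replicates 1 and 2. In mxl-2 on daf-16 RNAi they summed to 9551, 34.6 and 10716 TPM in replicates 1, 2 and 3. Over the 33 libraries, Pearson's r between log2(summed TPM + 1) of the sperm list and of the 8 was 0.84 (Spearman's rho 0.87), and 0.86 without replicates 1 and 3 of mxl-2 on daf-16 RNAi. In the double mutant against eat-2 on EV 15 of 31 were called higher, where 9.54% of all genes tested were, and in eat-2 against N2 over the 3 foods 30 of 31 were called lower, where 9.24% were. Between the double mutant and N2 on EV 0 of 31 were called by edgeR and 0 were at an unadjusted p under 0.05, with a median log2 fold change of 0.38, where the 10 collagens had 2.37. The sperm list had sums of 4087 to 5673 TPM in the double mutant and 3292 to 3639 TPM in N2. The 8 collagens summed to 410.0 to 524 TPM in the double mutant and 52.6 to 77.8 TPM in N2 there. In N2 on pha-4 RNAi replicates 1 and 2 the sperm list stood at 5103 and 7001 TPM, above all N2 EV libraries, and the 8 collagens at 25.9 and 25.8 TPM, below all of them. Replicates 1 and 2 of mxl-2 EV had sperm sums of 10580 and 7619 TPM, near those of mxl-2 on daf-16 RNAi replicates 1 and 3, but the 8 summed to 129 and 92.9 TPM in these EV libraries, against 1867 and 2336 TPM in the daf-16 RNAi ones. The part of sperm content in the collagen results was not tested.

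Markers of the epidermis, the tissue that makes the cuticle, varied with sqt-3 and dpy-17 more than with the 8. The 7 epidermal markers were all above 0 counts in every library, and summed to 114 to 118 TPM in double mutant EV libraries, 93.7 and 152 TPM in eat-2 EV libraries and 103 to 113 TPM in N2 EV libraries. Their r over the 33 libraries was 0.03 with the 8 and 0.56 with the sum of sqt-3 and dpy-17. Moulting genes had an r of 0.55 with the 8 (0.28 without replicates 1 and 3 of mxl-2 on daf-16 RNAi) and of 0.70 with sqt-3 and dpy-17, and furrow collagens had 0.44 and 0.80. Moulting genes summed to 312 and 405 TPM in those 2 libraries and to 125 TPM in replicate 2. Without the 2 libraries the epidermal markers had an r of -0.01 with the 8 and 0.56 with sqt-3 and dpy-17, the moulting genes 0.77 with sqt-3 and dpy-17, and the furrow collagens 0.39 and 0.79. The r with the 8 was 0.48 for muscle markers, 0.35 for intestine, -0.20 for oocyte and eggshell and -0.45 for early embryo. Without the 2 libraries it was 0.32 for muscle, 0.08 for intestine, -0.17 for oocyte and eggshell and -0.19 for early embryo. Intestinal markers summed to 883 and 888 TPM in those 2 libraries and to 227 TPM in replicate 2. The markers' part in the results was not tested.

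**Figure D5:**
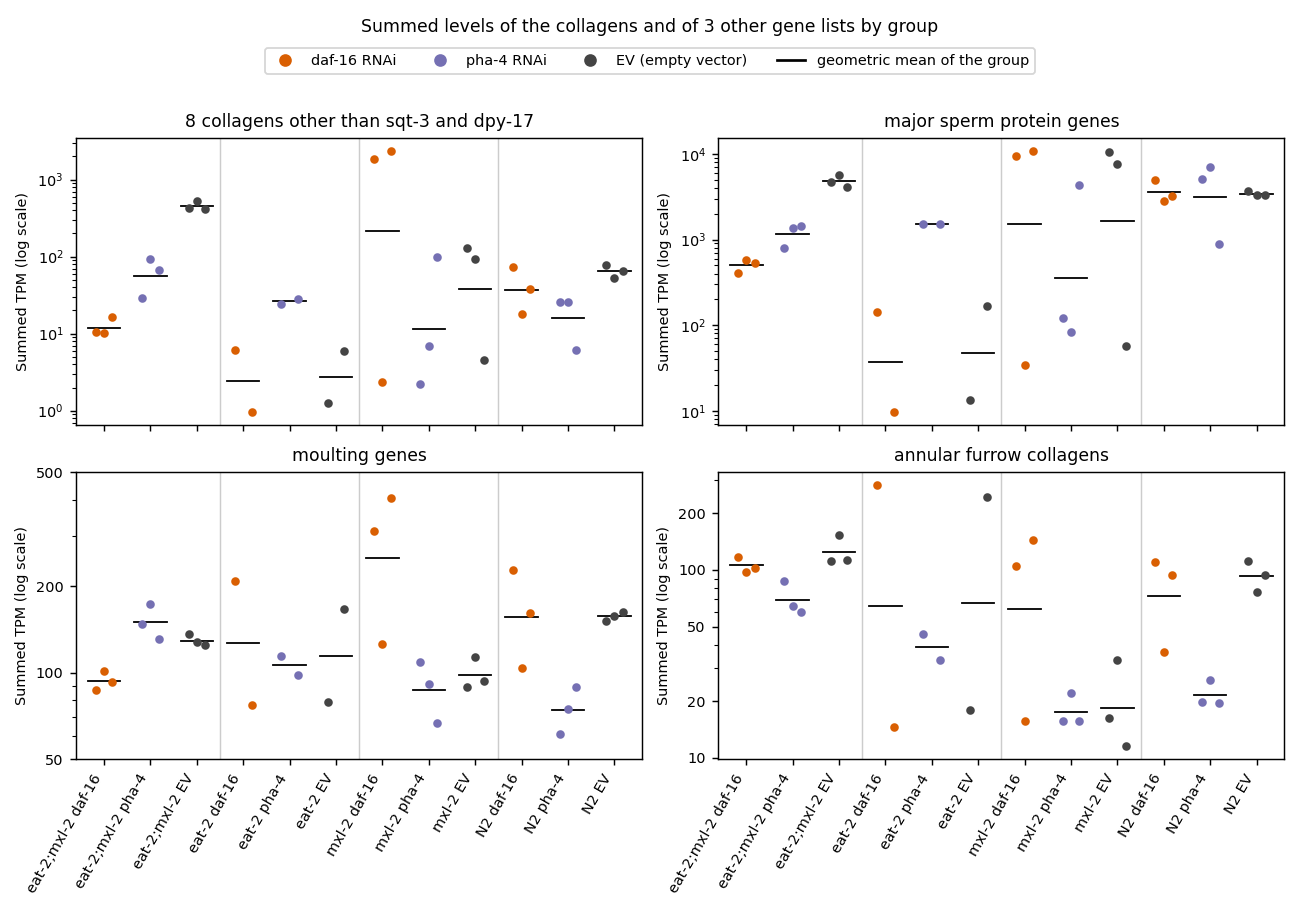
Summed TPM (y, log scale) of the 8 collagens other than sqt-3 and dpy-17, the major sperm protein genes, the moulting genes and the furrow collagens in the 12 groups (x), with a point per library and a line at the geometric mean. Replicates 1 and 3 of mxl-2 on daf-16 RNAi are high in the 8 (1867 and 2336 TPM) and in sperm genes (9551 and 10716 TPM), with replicate 2 low in both.

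Among collagens with adult timing, col-7 and col-19 summed to 1220 to 1289 TPM in double mutant EV libraries, 348 and 124 TPM in eat-2 EV libraries and 1071 to 1122 TPM in N2 EV libraries. col-19, a marker of the adult cuticle, was lower in eat-2 than in N2 over the 3 foods (log2 fold change -1.93, edgeR adjusted p = 0.0182), where rol-8 was also lower (-2.505, adjusted p = 0.0413). Of the furrow collagens 0 of 6 were called there by edgeR, 1 at an unadjusted p under 0.05, and their median was 0.43. Of the 2 strut collagens, bli-1 was called lower and bli-2 was not (-2.31, SE 0.93, edgeR adjusted p = 0.0926), and the difference between struts and furrows was not tested. In replicates 1 and 3 of mxl-2 on daf-16 RNAi, dpy-4, rol-8 and bli-6 were high with the 8 (dpy-4 at 546 and 665 CPM, against 0.405 CPM in replicate 2), and dpy-14 was low with dpy-17 (2.01 and 1.85 CPM, against 67.9 CPM in replicate 2).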

How the data were processed

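Whole-animal polyadenylated RNA was sequenced in 33 libraries with a stranded kit, per the labels. The authors deposited unnormalised whole-number counts per gene and, in a second table, TPM. Both tables list 17907 genes. The submitters' processing notes name FastQC, Trimmomatic, STAR 2.4.2a, RSEM 1.2.23, featureCounts 1.4.6-p5 and WBcel235. The annotation and the use of strand are not given in the sources used here. Coordinates are those of Ensembl release 115 (WBcel235), which held all 17907 gene identifiers. Columns were tied to samples by name and samples to groups by title.

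edgeR 4.0.16 (R 4.3.3) gave the main test, its quasi-likelihood F test on the deposited counts, after TMM scaling (factors 0.782 to 1.56) and filterByExpr, which kept 17354 genes. All 33 libraries entered 1 model with a mean per group, and Benjamini-Hochberg adjustment ran over all genes tested in each of 21 tests, with calls at 0.05. CPM values use TMM-scaled library sizes, and a prior count of 2 enters their log2 form. The SE of a log2 fold change was its size divided by the square root of F. The code of the fit was tested on simulated counts with known changes and no outlying libraries. That test does not bear on calls that rest on outlying libraries. In the text, a floor of 3 counts per library was applied only to bli-1 for daf-16 RNAi in eat-2. It was not part of the fit. Other folds that rest in part on lower counts are given, and floors cover counting error only. No pair of replicates agreed within sampling noise: the chi-square per degree of freedom over the 30 pairs ran from 9.95 to 630.

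Alternatives were DESeq2 1.42.0, limma 3.58.1 on log2(TPM + 1), size factors by relative log expression, no filter, a replicate block, the groups alone and leaving out each library. Same-numbered libraries did not deviate together in a way that pairs them (correlations of deviations from -0.92 to 0.75 over 13 comparisons), so the main fit has no block. The 10 genes, the gene lists and the rule for named genes were chosen with earlier results of these data known: all 10 are described, with tests for those called or, where none was, for the one with the smallest p. Other genes given as examples were chosen after their values were seen. No sequences were used.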

Additional observations from a re-analysis of the deposited data

Results flagged for a closer look

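The effect of eat-2 differed with mxl-2 on EV in sqt-1, by an interaction term of 8.64 on the log2 scale (edgeR adjusted p = 0.0450). Of all genes tested, 1.27% were called. The sqt-1 call ended when any 1 of the EV libraries was left out, and its eat-2 EV values rest on 4 and 7 counts. The response to RNAi differed between strains in 8 of the 10 collagens by an edgeR F test, where 6.77% of all genes tested were called. The adjusted p was 0.00761 in sqt-1, 0.00759 in sqt-2, 0.0138 in rol-6, 0.00554 in bli-1, 0.0186 in bli-2, 0.0165 in dpy-5, 0.0192 in dpy-13 and 0.0274 in lon-3. In the double mutant the 3 foods did not overlap in sqt-1, which averaged 1.76 ± 0.91 CPM on daf-16 RNAi, 8.38 ± 2.94 CPM in libraries labelled pha-4 RNAi and 60.7 ± 7.90 CPM in those labelled EV (SD, n = 3 each). The share of all genes tested in which the 3 foods separate in this way is not given. In N2 sqt-1 averaged 5.01 ± 3.17, 2.29 ± 1.38 and 7.74 ± 2.502 CPM on daf-16 RNAi, pha-4 RNAi and EV (SD, n = 3 each). With the 6 libraries whose pha-4 level goes against the label left out, 0 of the 10 were called for this difference. Without replicates 1 and 3 of mxl-2 on daf-16 RNAi fewer than 8 were called.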

How the results depend on the processing

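Each single-gene result was refitted under many alternatives, and each pair of a result and an alternative was counted once. Of these pairs, 584 kept their direction and side of the threshold, 195 lost the call, 12 gained one and 8 reversed. The numbers of the 10 collagens called moved as follows, and the cause was not tested. With DESeq2, 7 were called in eat-2 against N2 on EV, 4 in the double mutant against N2 on EV and 4 against mxl-2 on EV, 9 for daf-16 RNAi in mxl-2, 1 for pha-4 RNAi in N2, 1 in eat-2 and 2 in the double mutant, 6 in mxl-2 against N2 over the foods and 8 for the interaction on EV. Over all genes tested, DESeq2 called 1947, 3017, 2089, 466, 356, 1117, 727, 1994 and 1083 in these comparisons, in that order. With limma on TPM, 3 were called in the double mutant against mxl-2 on EV, 2 for pha-4 RNAi in the double mutant, 0 in eat-2 against N2, 4 in the double mutant against eat-2 and 1 against mxl-2 over the foods, 2 for the interaction on EV and 2 for strain by food. Over all genes tested, limma called 1775, 534, 800, 2703, 5099 and 333 in that order, with no number given for strain by food. Such numbers are also not given for the fits below on fewer groups or libraries. The 2 groups alone gave 5 in eat-2 against N2 on EV, 10 in the double mutant against N2 and 3 against mxl-2 on EV, 2 for pha-4 RNAi in N2 and 10 in the double mutant. Without replicates 1 and 3 of mxl-2 on daf-16 RNAi (chosen after seeing the data), the counts were 3 in eat-2 against N2 on EV, 4 in the double mutant against N2 and 5 against mxl-2 on EV, 1 for pha-4 RNAi in the double mutant, 2 in mxl-2 against N2 over the foods, 6 for the interaction on EV and 4 for strain by food. On daf-16 RNAi alone (also chosen after seeing the data) the double mutant gave 0 against eat-2 and 9 against mxl-2, and without the 6 libraries labelled double mutant EV and pha-4 RNAi the strain by food test gave 0 and the test among groups 8.

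The replicate block, which uses numbers that do not pair the libraries, gave 3 in eat-2 against N2 and 2 in the double mutant against mxl-2 over the foods and 0 for the interaction on EV, and moved no other count of calls by more than 1.5 times. Same-numbered eat-2 libraries on daf-16 RNAi and EV deviated in opposite ways (correlation -0.92), and crossing the numbers as a block gave 0 calls.

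Leaving out each library in turn gave 0 to 1 calls in the double mutant against N2 and 0 to 1 against mxl-2 on EV, 0 to 8 against eat-2 on EV, 0 to 10 for daf-16 RNAi in mxl-2, 0 to 4 in the double mutant, 0 to 5 in eat-2 against N2, 1 to 8 in mxl-2 against N2, 5 to 8 in the double mutant against eat-2 and 1 to 5 against mxl-2 over the foods, 0 to 0 for the interaction on EV and 7 to 10 for strain by food. The lone library left in an eat-2 group, or in mxl-2 on daf-16 RNAi without its replicates 1 and 3, is assumed to vary like the other groups.

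Reversed values were sqt-2 for daf-16 RNAi in mxl-2 (-3.93 without replicates 1 and 3), sqt-3 for daf-16 RNAi in eat-2 (-0.052 with limma on TPM, -0.15 without eat-2 EV replicate 1 and -2.91 without eat-2 daf-16 replicate 1, in a range up to 2.18 without eat-2 EV replicate 2, -0.14 with the crossed block) and, in the double mutant against mxl-2 over the foods without those 2 mxl-2 libraries, bli-1 (0.56), dpy-5 (1.02) and dpy-13 (0.92). In the double mutant against eat-2 on EV, the 15 processing enzymes had 1 call, 3 with DESeq2, and the 4 other collagens had 2, 4 without those 2 libraries. For daf-16 RNAi in the double mutant the 4 had 2 calls, 4 with DESeq2. Over all genes tested, DESeq2 called 4154 and 3030 in these 2 comparisons. On the TPM scale the median of all genes shifted by up to 0.24 in comparisons of the double mutant. In eat-2 libraries the 8 less abundant genes rest on as few as 1 count, which limits the precision of every fold against them.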
